A study of Mus musculus with 6 samples.

Results

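The genes described are 39 interferon-stimulated genes of the mouse, chosen by name as genes that interferons are known to induce. Interferon regulatory factor genes and genes of major histocompatibility complex (MHC) class I were not taken. All 39 were found among the 23337 genes of the count file. Their transcripts were measured by polyA-selected RNA-seq in leukaemia initiating cells (LICs), sorted leukaemia cells with the capacity to start the disease again. Adult replicates 1, 2 and 4 were set against neonatal replicates 4, 7 and 8, which gave 3 libraries in each age group. Per the labels, the source was haematopoietic stem and progenitor cells of mice, the cell type sorted LICs and the age adult or neonatal. Strain, leukaemia driver, sorting markers, treatment and sex were not given in the sources used here. Whether each replicate was its own animal is not stated, and p-values then cover only the spread among these libraries, which may be technical.

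Cells that sense viral nucleic acid make type I and type III interferons, which bind receptors on the same or neighbouring cells. The receptors' Janus kinases activate STAT factors, which join IRF9 and bind a promoter element called the interferon-stimulated response element (ISRE). Interferon gamma acts through another element, the gamma-activated site (GAS). The induced genes encode sensors, signalling and feedback proteins, antiviral effectors and large GTPases, and haematopoietic stem cells express some of them without infection.

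Of the 39 interferon-stimulated genes, 25 had a mean of at least 1 RPKM, a level per exon length, over the 6 libraries, and 0 of the 38 tested passed the test for a difference between the age groups. Bst2 and Igtp were the members higher in all 3 neonatal libraries than in any adult library. Eif2ak2, Dtx3l, Ifit2, Oas2, Isg20, Ifitm3 and Gbp7 were lower in all 3 neonatal libraries than in any adult library. The 2 higher members are 2 of 38 tested, against 7.67% of all 13272 genes tested, and the 7 lower members are 7 of 38, against 12% of all genes. With upper quartile scaling 2 members were higher (7.81% of all genes) and 5 lower (11.7% of all genes). With library totals alone 2 were higher (6.23%) and 8 lower (12.9%). The summed level of the 39 members, in counts scaled to library size (CPM), was 637, 625 and 786 in the adult libraries (replicates 1, 2 and 4, the order used throughout). The neonatal libraries (replicates 4, 7 and 8) summed to 752, 589 and 559 CPM. The adult mean was 683 ± 89.6 CPM and the neonatal mean 634 ± 103 CPM (SD, n = 3), and the ranges overlapped.

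Differences were tested with edgeR's quasi-likelihood test, neonatal minus adult, with Benjamini-Hochberg adjustment over all genes tested and a threshold of 0.05. It called 0 of 38 members tested, against 0.0527% of all genes (7 of 13272). At an unadjusted p under 0.05 there were 7 members, against 11.9% of all genes. Ifi44 had too few counts to be tested. DESeq2 called 1 member (Oas2), against 5.72% of all genes. Limma voom called 0 members, against 0.0527%, and 8 members had an unadjusted p under 0.05, against 17%. Limma voom with library quality weights called 2 members (Oas2 and Ifitm3), against 7.96%. The median log2 fold change of the 38 members was 0.00, with 20 positive and 18 negative. That of all genes tested was 0.05, with 46.5% negative. Single members ranged from -3.63 (Oas2) to 2.49 (Mx2) on the log2 scale. The median standard error (SE) of a member's log2 fold change was 0.64, against 0.49 over all genes tested.

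Neonatal replicate 4 stood apart in depth, with 3932833 counts against 60113466 to 66132051 in the other 5 libraries. It held 2515 counts over the 39 members, and 9 members had fewer than 3 counts there. The level that 3 counts stand for, a limit for counting error alone, was 0.897 CPM there and 0.0425 to 0.0503 CPM elsewhere. Without that library edgeR called 0 of 38 members, against 5.98% of all genes (828 of 13856), and 8 members had an unadjusted p under 0.05, against 29.5%. DESeq2 without it called 5 members, against 24% of all genes. These were Ifit2, Oas2, Ifitm3 and Gbp7, lower in neonatal, and Igtp, higher. Limma voom without it called 1 member (Ifitm3), against 6.7%. The median of the members became -0.25, with 13 positive and 25 negative, beside -0.05 for all genes, with 52% negative. Non-overlapping members became 7 higher (25% of all genes) and 11 lower (25.6% of all genes). Levels of sex-linked genes went with the age group: Xist had 51.7 to 186 CPM in every neonatal library and at most 0.919 CPM in an adult one, and Ddx3y had 98.8 to 154 CPM in every adult library and at most 0.0148 CPM in a neonatal one. Age group and sex cannot be told apart in any comparison of the groups given here, and 0 of the 39 members lie on chromosome X or Y.

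**Figure D1:**
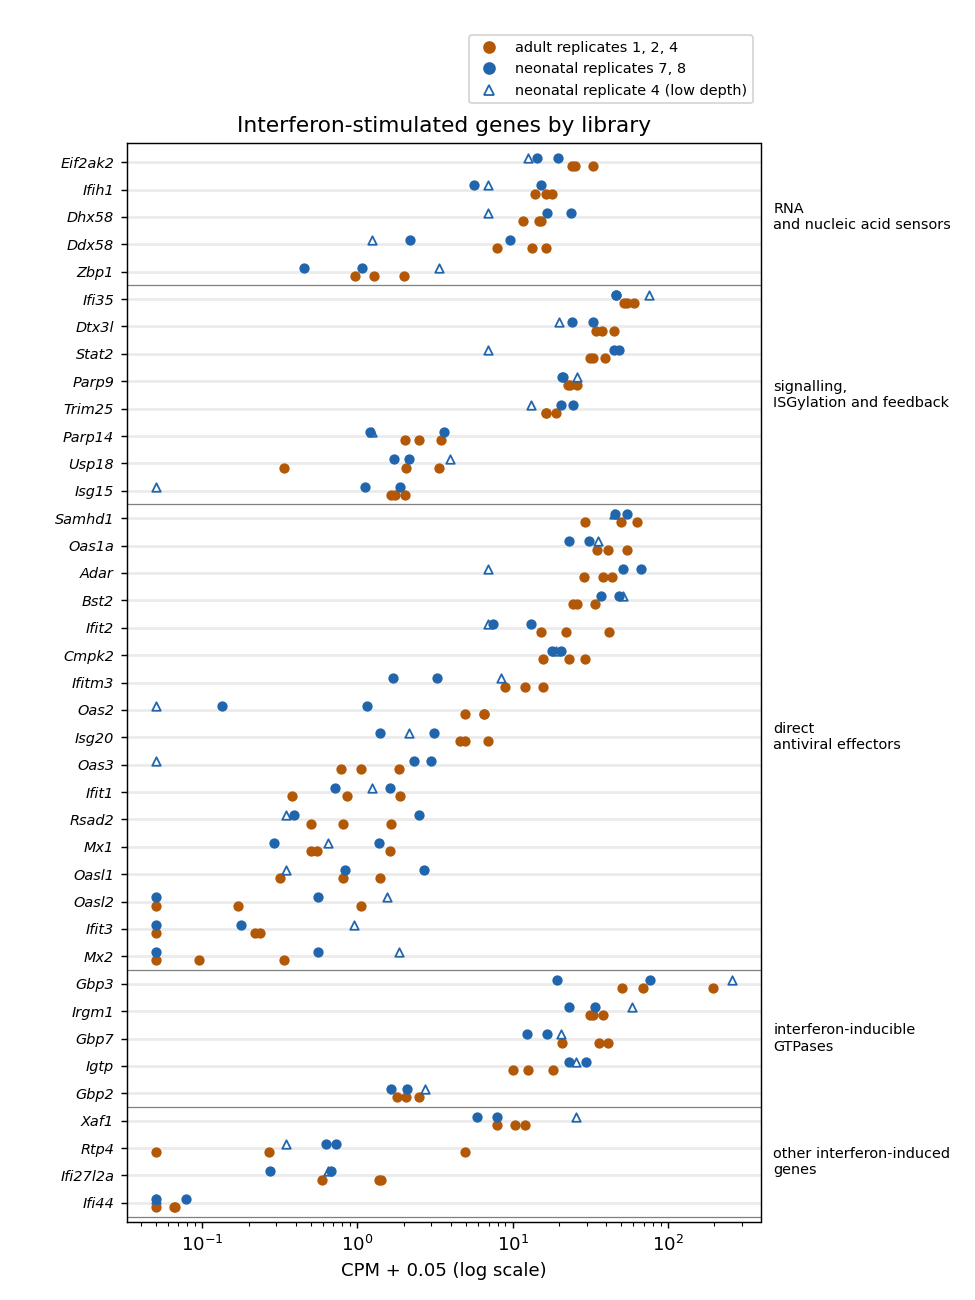
Level of each interferon-stimulated gene in each library, as CPM with 0.05 added, on a log axis, grouped by role. Filled points are adult replicates and neonatal replicates 7 and 8, and open triangles are neonatal replicate 4. The neonatal points of Oas2 lie left of all adult points, and those of Igtp lie right of them, while most members overlap.

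Promoter sequence was taken from RefSeq's table for mouse GRCm38.p6, the assembly named mm10 in the count file, as windows from 250 bases before to 50 bases after a gene's start. It held 29 of the 39 members. Dhx58, Zbp1, Usp18, Parp9, Parp14, Mx1, Mx2, Oas2, Ifi27l2a and Rtp4 had no entry. The ISRE core searched was GAAA, any 2 bases and GAAA again, on both strands, with overlapping matches counted separately. It was in 17 of 29 members (58.6%), against 3.99% of the 27025 genes with a promoter and 3.44% of the 32851 promoters, and 8 members held 2 or more matches. The GAS motif, TTC, any 3 bases and GAA, which reads alike on both strands, was in 11 of 29 members (37.9%), against 9.55% of all genes with a promoter. A match is a run of letters and not a shown binding site.

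The stretch from 160 bases to 1 base before the gene start is shown for 8 members, 5′ to 3′ on the gene's strand, to set the same element beside unlike levels. They were chosen after levels and matches had been seen. Capitals mark the ISRE core matches on either strand, which join where they overlap. In Isg15, Ifit1, Ifit3 and Rsad2 the element stands before genes that were low in these cells. Isg15 (chr4:156200819-156200978, minus strand) held 3 overlapping matches, Ifit1 (chr19:34640729-34640888, plus strand) and Ifit3 (chr19:34583369-34583528, plus strand) held 2 each, and Rsad2 (chr12:26456453-26456612, minus strand) held 1.
Isg15: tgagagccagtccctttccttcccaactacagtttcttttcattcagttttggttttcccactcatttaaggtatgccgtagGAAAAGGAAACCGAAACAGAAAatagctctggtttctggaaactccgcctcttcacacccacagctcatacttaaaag
Ifit1: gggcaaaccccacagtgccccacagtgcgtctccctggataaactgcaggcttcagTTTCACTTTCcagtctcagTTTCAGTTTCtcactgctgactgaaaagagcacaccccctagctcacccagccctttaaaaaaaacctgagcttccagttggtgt
Ifit3: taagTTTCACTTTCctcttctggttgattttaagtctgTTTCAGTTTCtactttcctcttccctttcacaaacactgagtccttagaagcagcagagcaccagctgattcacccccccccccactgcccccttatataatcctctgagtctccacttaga
Rsad2: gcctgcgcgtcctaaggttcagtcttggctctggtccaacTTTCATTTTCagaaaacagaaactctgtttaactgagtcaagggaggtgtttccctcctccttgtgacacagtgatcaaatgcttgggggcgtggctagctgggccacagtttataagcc

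Bst2 (chr8:71537473-71537632, minus strand) and Gbp3 (chr3:142559884-142560043, plus strand) had the highest levels per length and 2 overlapping matches each. Igtp (chr11:58199396-58199555, plus strand) was higher and Gbp7 (chr3:142530176-142530335, plus strand) lower in every neonatal library than in any adult library, and each held 1 match.
Bst2: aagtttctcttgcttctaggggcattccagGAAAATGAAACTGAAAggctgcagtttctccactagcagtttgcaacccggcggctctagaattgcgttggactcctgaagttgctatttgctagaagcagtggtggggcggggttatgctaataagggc
Gbp3: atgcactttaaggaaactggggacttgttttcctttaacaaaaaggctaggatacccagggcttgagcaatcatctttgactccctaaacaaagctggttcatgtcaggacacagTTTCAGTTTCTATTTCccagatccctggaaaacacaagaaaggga
Igtp: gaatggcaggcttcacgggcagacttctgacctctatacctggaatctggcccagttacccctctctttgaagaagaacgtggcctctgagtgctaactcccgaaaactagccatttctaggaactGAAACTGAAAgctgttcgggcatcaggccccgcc
Gbp7: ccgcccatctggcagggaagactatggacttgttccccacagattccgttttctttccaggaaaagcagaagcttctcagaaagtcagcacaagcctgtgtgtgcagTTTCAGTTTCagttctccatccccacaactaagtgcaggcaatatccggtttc

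Low and high members stood in both classes of promoter. The 17 members with the ISRE core ranged from 0.115 (Ifit3) to 48.2 RPKM (Bst2) with a median of 4.43. RPKM here is CPM per kilobase of the gene's exon length in the file. The 12 members whose promoter lacked it ranged from 0.00348 (Ifi44) to 41.1 RPKM (Ifi35) with a median of 4.47.

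Mean levels of single members over the 6 libraries ran from 0.00348 to 48.2 RPKM. Their median level was 3.25 RPKM, against 8.30 RPKM for the genes tested, and 8 of 39 lay above that median. A mean of at least 10 RPKM was reached by 7 members, and 14 members had a mean under 1 RPKM. In every library 24 members had at least 1 CPM, while 13 averaged under 2 CPM in both groups and 8 had 0 counts in at least 1 library.

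Bst2 (chr8:71534262-71537437, mm10), which encodes tetherin, a membrane protein that holds budding virions on the cell, had the highest level per length, 36.6 RPKM in adult and 59.9 in neonatal LICs. Gbp3 (chr3:142560052-142573212), a guanylate-binding GTPase, followed with 39.8 RPKM in adult and 44.8 in neonatal LICs. Ifi35 (chr11:101448412-101458701), an interferon-induced leucine zipper protein, had 41.0 and 41.2 RPKM. The spread of Gbp3 covered the gap to both neighbours, so the order of these 3 is not settled. At the other end, Ifi44 (chr3:151730923-151749959) had counts of 1, 0 and 1 in adult replicates 1, 2 and 4 and of 0, 2 and 0 in neonatal replicates 4, 7 and 8. Ifit3 (chr19:34583529-34588982), of the family that binds viral RNA ends, was at 0.168, 0 and 0.187 CPM in the adult libraries, against 0.897, 0.127 and 0 CPM in the neonatal ones. Its value in neonatal replicate 4 rests on 3 counts. Oasl2 (chr5:114896934-114912245), related to the oligoadenylate synthetases, was at 0, 0.119 and 0.997 CPM in the adult libraries, against 1.49, 0 and 0.504 CPM in the neonatal ones. All 3 low genes overlapped between the groups. Reads of Ifit3 and of its near copy Ifit3b could not be told apart with certainty, which also holds for Oas1a and Oas1g.

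**Figure D2:**
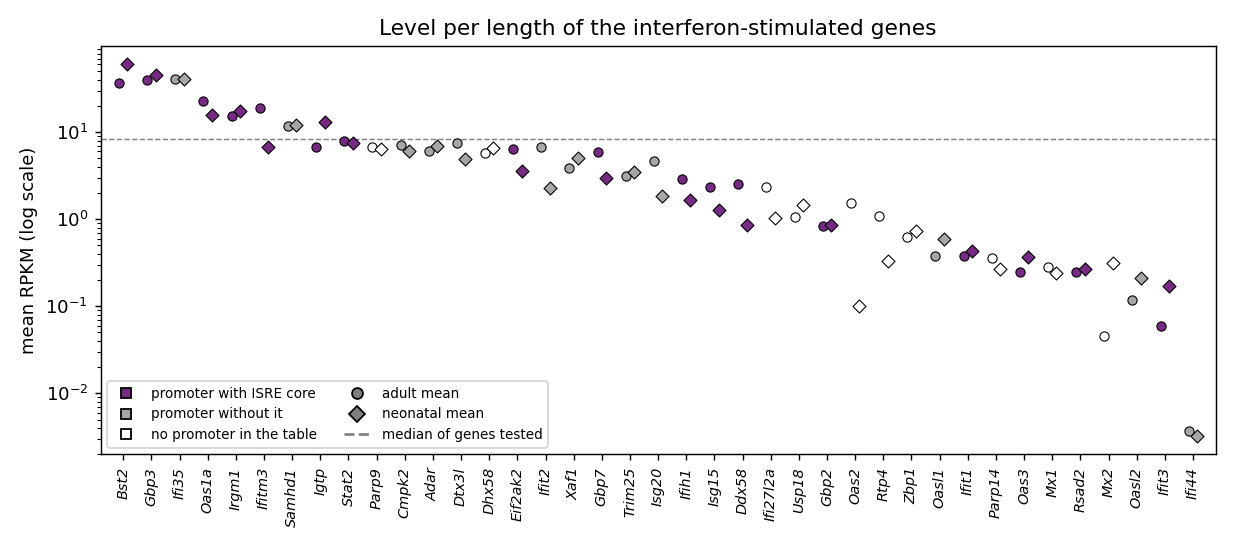
Mean RPKM of each interferon-stimulated gene in adult (circles) and neonatal (diamonds) LICs, on a log axis, ordered by the mean over 6 libraries. The fill shows whether the promoter held the ISRE core, and the dashed line is the median of the genes tested, 8.30 RPKM. Members with the core stand at both ends of the order.

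Of the 5 sensors of foreign nucleic acid, 0 passed edgeR's test, 3 had negative log2 fold changes, and their median was -0.79 (all genes 0.05). Eif2ak2 (chr17:78852550-78882572) encodes PKR, the kinase that stops translation on double-stranded RNA. Its adult values were 33.1, 24.2 and 25.3 CPM, and its neonatal values 12.6, 14.2 and 19.6 CPM. Every neonatal value was below every adult value. For Eif2ak2 the log2 fold change was -0.82 ± 0.34 (SE), with an edgeR adjusted p of 0.399, and -0.69 ± 0.28 with an adjusted p of 0.164 without neonatal replicate 4. The RNA helicase Ddx58 (RIG-I) was at 16.4, 13.3 and 7.92 CPM in the adult libraries, against 1.20, 2.12 and 9.53 CPM in the neonatal ones, and neonatal replicate 8 lay inside the adult range. Its relatives Ifih1 (MDA5) and Dhx58 (LGP2) had log2 fold changes of -0.79 ± 0.47 and 0.20 ± 0.48. Zbp1, which binds Z-form nucleic acid, averaged 1.36 CPM (adult) and 1.57 CPM (neonatal).

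The 8 members of signalling, ISG15 conjugation and feedback had a median log2 fold change of -0.06 with 0 called. Dtx3l (chr16:35926515-35939027), a ubiquitin ligase that works as a pair with the ADP-ribosyltransferase Parp9, was at 44.9, 37.6 and 34.3 CPM in the adult libraries, against 20.0, 33.0 and 24.0 CPM in the neonatal ones. The groups did not overlap, but the gap between the lowest adult and the highest neonatal value was small. For Dtx3l the log2 fold change was -0.59 ± 0.33 with an edgeR adjusted p of 0.539. Parp9, at 24.1 ± 1.69 and 22.7 ± 2.89 CPM (SD, n = 3), had a log2 fold change of -0.09 ± 0.30. Parp9 and Dtx3l share 334 exon bases on opposite strands, 9.37% of Parp9 and 6.45% of Dtx3l. The library kit left strand unmarked, so reads there cannot be told apart. Stat2, a subunit of the ISRE-binding complex, had 32.9, 39.3 and 31.7 CPM in the adult libraries, against 6.87, 45.0 and 48.3 CPM in the neonatal ones. Replicate 4 lay below and replicates 7 and 8 above all adult libraries. Isg15, the ubiquitin-like protein conjugated to other proteins, had 1.69, 1.61 and 1.98 CPM in the adult libraries, and neonatal replicates 7 and 8 had 1.06 and 1.82 CPM. It had 0 counts in neonatal replicate 4, which allows up to 0.897 CPM there. Usp18, the protease that removes ISG15 and dampens the receptor, ranged from 0.285 to 3.29 CPM among adult libraries and from 1.67 to 3.89 CPM among neonatal ones. The ligase Trim25 and Parp14 had log2 fold changes of 0.17 ± 0.36 and -0.37 ± 0.67. Ifi35 was at 52.0, 60.7 and 54.6 CPM in the adult libraries, against 75.3, 46.2 and 46.4 CPM in the neonatal ones, with a log2 fold change of 0.00 ± 0.31.

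Among the 17 direct antiviral effectors, 0 were called, 10 log2 fold changes were positive and 7 negative, and the median was 0.20. Without neonatal replicate 4 the median was -0.08, with 8 positive and 9 negative. Oas2 (chr5:120730333-120749848), an oligoadenylate synthetase whose product activates RNase L, had the lowest log2 fold change. Adult libraries had 6.50, 4.90 and 6.53 CPM, from 329 to 419 counts. Neonatal replicates 7 and 8 were at 0.0850 and 1.10 CPM, from 6 and 74 counts, and neonatal replicate 4 had 0 counts, which allows up to 0.897 CPM. EdgeR estimated a log2 fold change for Oas2 of -3.63 ± 1.07 with an adjusted p of 0.233, and -3.32 ± 1.07 with 0.102 without neonatal replicate 4. DESeq2 gave an adjusted p of 0.00871 and limma voom with quality weights 0.0283, and over 19 fits the adjusted p ran from 0.00470 to 0.475. The other synthetases overlapped between the groups on 6 libraries. Without neonatal replicate 4, Oas1a was lower and Oas3 higher without overlap, against 25.6% and 25% of all genes. Oas1a had an adult mean of 43.4 ± 9.93 CPM and a neonatal mean of 29.9 ± 6.15 CPM (SD, n = 3), with overlap. Oas3, next to Oas2 on chromosome 5, had a log2 fold change of 0.66 ± 1.01, and Oasl1 and Oasl2 had 0.74 ± 0.95 and 0.53 ± 2.01.

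Ifitm3 (chr7:141009590-141010744) encodes a membrane protein that blocks fusion of incoming viruses. It was at 15.7, 11.9 and 8.84 CPM in the adult libraries, against 8.37, 3.20 and 1.64 CPM in the neonatal ones. Neonatal replicate 4 was close to the lowest adult library. Its log2 fold change was -1.54 ± 0.66 with an edgeR adjusted p of 0.410, and -2.32 ± 0.51 with 0.0503 without neonatal replicate 4. Limma voom with quality weights gave an adjusted p of 0.0257 and limma voom without replicate 4 gave 0.0497, within a range of 7.95e-05 to 0.779 over 19 fits. Ifit2 (chr19:34550694-34576534), an RNA-binding tetratricopeptide protein, was at 22.2, 15.3 and 41.5 CPM in the adult libraries, against 6.87, 13 and 7.39 CPM in the neonatal ones. Adult replicate 4 was the highest. The fitted log2 fold change was -1.52 ± 0.49 with an edgeR adjusted p of 0.283, and the adjusted p ran from 0.0404 (DESeq2 without neonatal replicate 4) to 0.594 over 19 fits. Its neighbour Ifit1 had 0.20 ± 0.84 from levels under 2 CPM in every library. Isg20 (chr7:78913765-78920396), an exonuclease for single-stranded RNA, was at 4.88, 6.94 and 4.52 CPM in the adult libraries, against 2.09, 3.05 and 1.35 CPM in the neonatal ones. The Isg20 log2 fold change was -1.33 ± 0.55 with an edgeR adjusted p of 0.398.

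Bst2 was the effector with higher values in every neonatal library. It was at 25.9, 24.4 and 33.7 CPM in the adult libraries, against 51.7, 48.8 and 37.1 CPM in the neonatal ones. Neonatal replicate 8 lay close to adult replicate 4. Its log2 fold change was 0.71 ± 0.31 with an edgeR adjusted p of 0.425, and 0.63 ± 0.25 with 0.153 without neonatal replicate 4. Adar, which deaminates adenosine in double-stranded RNA, had 29.0, 38.5 and 43.5 CPM in the adult libraries, against 6.87, 51.7 and 67.3 CPM in the neonatal ones. As with Stat2, only replicate 4 was below the adult libraries. Samhd1, a dNTP-cleaving enzyme, and Cmpk2, a mitochondrial nucleotide kinase, had log2 fold changes of 0.02 ± 0.36 and -0.24 ± 0.35. Mx1, Mx2 and Rsad2 (viperin), effectors that rise steeply after interferon, were under 3 CPM in every library, with log2 fold changes of -0.18 ± 0.93, 2.49 ± 1.98 and 0.23 ± 0.99. The Mx2 value rests on 0 to 17 counts in adult and 0 to 34 counts in neonatal libraries.

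The 5 interferon-inducible GTPases, of families that act in defence against intracellular microbes, went in both directions with 0 called. Their median was 0.16, with 4 positive and 1 negative, and limma voom on 6 libraries gave -0.14. Without neonatal replicate 4 the edgeR median was -0.25, with 1 positive and 4 negative. Igtp (chr11:58199556-58207592) was at 18.1, 12.6 and 10.1 CPM in the adult libraries, against 25.7, 23.1 and 29.8 CPM in the neonatal ones. All neonatal libraries were higher, neonatal replicate 4 among them. The Igtp log2 fold change was 0.95 ± 0.36 with an edgeR adjusted p of 0.358, and 0.97 ± 0.33 with 0.112 without neonatal replicate 4. Gbp7 (chr3:142530338-142550083) was at 35.8, 20.8 and 41.5 CPM in the adult libraries, against 20.6, 12.4 and 16.5 CPM in the neonatal ones. Adult replicate 2 and neonatal replicate 4 nearly touched. Gbp7's log2 fold change was -1.0 ± 0.39 with an edgeR adjusted p of 0.371, and -1.17 ± 0.36 with 0.0939 without neonatal replicate 4. Over 19 fits the adjusted p ran from 0.0420 to 0.710 for Igtp and from 0.0175 to 0.720 for Gbp7, the lower ends from DESeq2 without neonatal replicate 4. Gbp3, next to Gbp7, was at 50.9, 69.5 and 195 CPM in the adult libraries, against 259, 76.6 and 19.4 CPM in the neonatal ones. It varied more within each age group than between them, and made up 24.8% of the summed member level in adult replicate 4 and 34.4% in neonatal replicate 4. With Gbp3 left out, the sums were 586, 556 and 591 CPM in the adult libraries, against 493, 513 and 540 CPM in the neonatal ones. Those sums did not overlap, an observation made after the values were seen and not tested. Irgm1 and Gbp2 had log2 fold changes of 0.16 ± 0.39 and 0.00 ± 0.58.

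Of the 4 remaining members, Ifi44 could not be tested and 0 of the other 3 were called. Xaf1, an inhibitor of XIAP, was at 11.9, 7.90 and 10.3 CPM in the adult libraries, against 25.7, 7.85 and 5.87 CPM in the neonatal ones. Neonatal replicate 4 was the highest library and replicates 7 and 8 the lowest. Ifi27l2a, of a family of small interferon-induced membrane proteins, averaged 1.08 ± 0.463 CPM over the adult libraries and 0.481 ± 0.225 CPM over the neonatal ones (SD, n = 3). Rtp4, a receptor transporter, reached 4.92 CPM in adult replicate 4 from 316 counts, and lay between 0 and 0.682 CPM in the other 5 libraries.

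**Figure D3:**
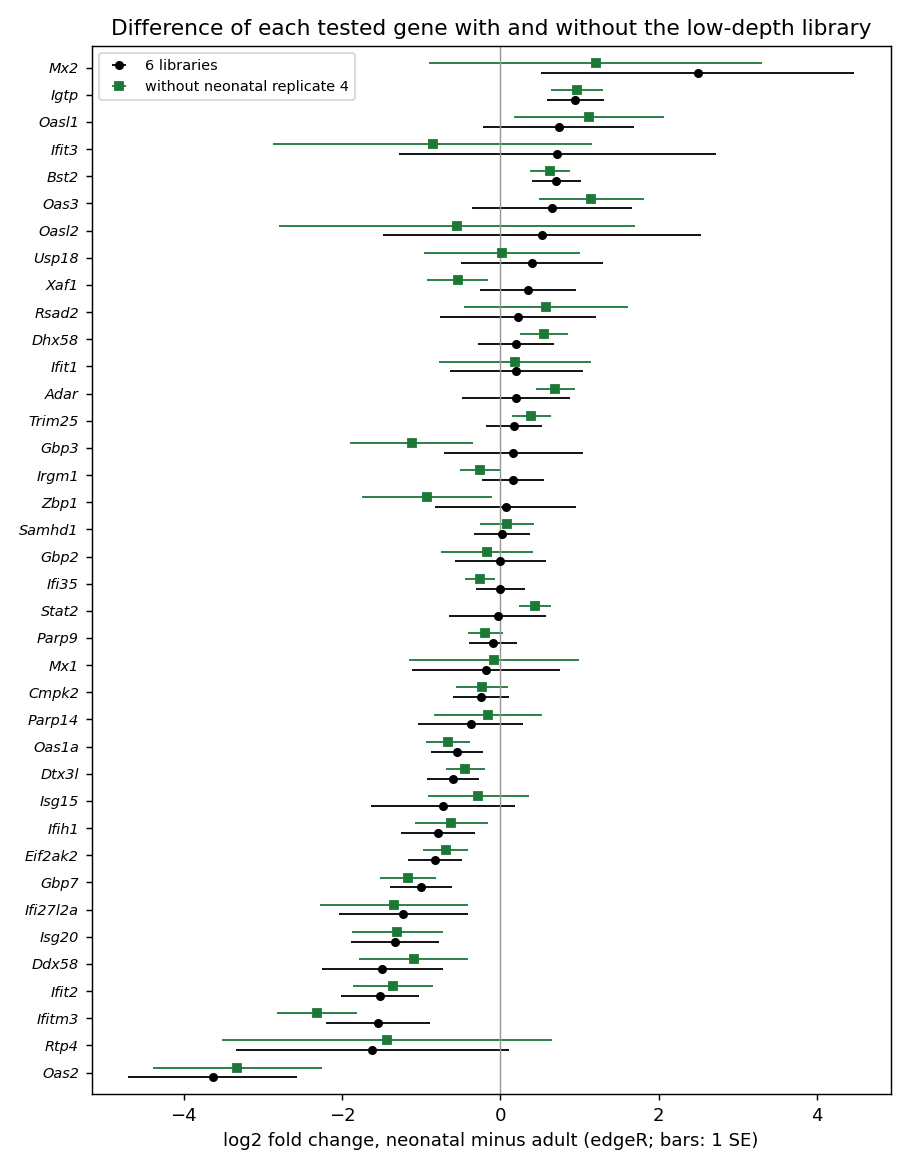
Log2 fold change, neonatal minus adult, of each tested interferon-stimulated gene with 6 libraries (circles) and without neonatal replicate 4 (squares), with bars of 1 SE. Oas2 is lowest at -3.63 and Mx2 highest at 2.49, both with wide bars, and 9 of 38 members change sign between the fits.

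Neonatal replicate 4 and its partners differed for many members. It was more than 2-fold above the mean of replicates 7 and 8, on CPM with 0.5 added, for 8 members (Zbp1, Ifit3, Mx2, Oasl2, Ifitm3, Gbp3, Irgm1 and Xaf1). It was more than 2-fold below for 7 members (Ddx58, Dhx58, Stat2, Isg15, Oas3, Oasl1 and Adar). Of all genes tested, 16.0% were above and 26.7% below by that measure. The 8 members had a median exon length of 2325.5 bases and the 7 a median of 4394 bases. Over all genes the medians were 1433 and 3621 bases. Across the 38 members tested, Pearson's r of this log2 difference with log2 exon length was -0.34, and it was -0.38 across all 13272 genes tested. Genes share the libraries and are not independent replicates, so this is a description. The sign of the log2 fold change differed with and without that library for 9 of 38 members, against 18.9% of all genes. When length and GC trends of the libraries were removed by offsets, edgeR called 0 members, against 0.098% of all genes, and 5 members had an unadjusted p under 0.05, against 14.1%. The median of the members was then 0.08, beside 0.13 for all genes.

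**Figure D4:**
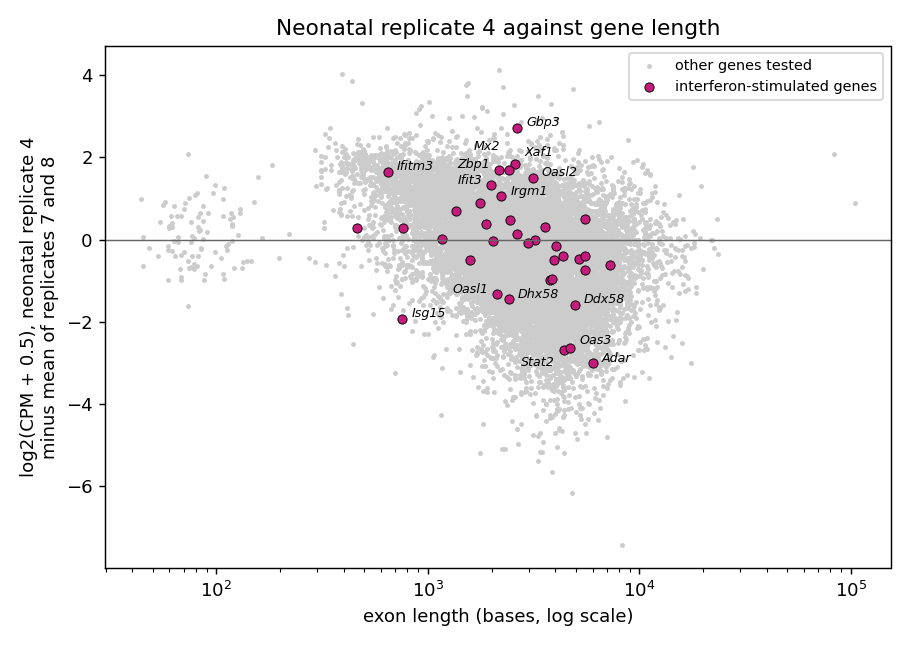
Log2 difference between neonatal replicate 4 and the mean of neonatal replicates 7 and 8, from CPM with 0.5 added, against exon length on a log axis. Each point is a tested gene, with interferon-stimulated genes filled and those beyond 2-fold named. Gbp3 is highest and Adar lowest among them, and the cloud of all genes slopes down (r = -0.38).

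The remaining genes of the interferon pathway were read from the same fits. Interferon ligand transcripts were at or near 0 counts: 20 of 21 ligand genes, among them Ifnb1, Ifng and Ifna4, had 0 counts in every library, which allows up to 0.00902 CPM over the 6 libraries. Near-identical Ifna copies could split reads between them, but each listed Ifna copy had 0 counts. The exception, Ifnz, a limitin-type interferon gene, was at most 0.756 CPM. EdgeR with 6 libraries called 0 genes of the 7 pathway lists, whose background was 0.0527% (7 of 13272 genes). Unadjusted p-values under 0.05, reached by 11.9% of all genes, numbered 0 of 1 ligand, 2 of 9 receptors and kinases, 1 of 10 STAT and IRF factors, 3 of 10 sensing adaptors, 0 of 7 negative regulators, 21 of 56 other interferon-induced genes and 4 of 12 MHC class I processing genes. DESeq2 called 2 receptors and kinases, 1 STAT or IRF factor, 2 sensing adaptors, 0 negative regulators, 10 other interferon-induced genes and 1 MHC class I gene, against 5.72% of all genes, and limma voom called 0 in each list. The calls that follow are edgeR's without neonatal replicate 4, where 5.98% of all genes were called, 3.72% higher and 2.25% lower.

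Of the 9 receptors and their kinases, 1 rose and 1 fell. Ifnar1, a chain of the type I receptor, had 43.4, 57.6 and 60.6 CPM in the adult libraries, against 39.8, 124 and 119 CPM in the neonatal ones, with replicate 4 the lowest of all 6. The log2 fold change without replicate 4 was 1.18 ± 0.20, with an edgeR adjusted p of 0.0400 and a range of 1.32e-05 to 0.853 over 19 fits. The interferon lambda receptor chain Il28ra (Ifnlr1) was at 1.99, 2.81 and 0.982 CPM in the adult libraries, against 0.299, 0.0142 and 0 CPM in the neonatal ones, from 63 to 189 adult counts and at most 1 neonatal count. Its log2 fold change was -7.72 ± 1.37 with an edgeR adjusted p of 0.0407 and a range of 7.79e-05 to 0.485. All neonatal values were lower, but this fitted size depends on near-zero counts: pooled over 6 libraries, the ratio of adult to neonatal level was 137 (95% counting interval 37.8 to 1138, exact binomial). Of the 10 STAT and IRF factors tested edgeR called 0, and 4 had an unadjusted p under 0.05, against 29.5% of all genes. DESeq2 without neonatal replicate 4 called 4 of them, against 24% of all genes, and limma voom without it 1, against 6.7%. The 3 of smallest p were Irf8, Irf1 and Irf5, with log2 fold changes without replicate 4 of 2.16 ± 0.54, 0.90 ± 0.27 and 1.81 ± 0.55.

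Among 10 sensing adaptors and kinases 2 rose and 0 fell without neonatal replicate 4. DESeq2 called 1 higher and 1 lower on 6 libraries (5.72% of all genes), and 2 and 1 without that replicate (24%). The lower gene was Tlr7, with a log2 fold change of -3.55 to -2.36 and an adjusted p of 0.00140 to 0.528 over 18 fits. On 6 libraries 1 of 10 was higher and 2 lower in every neonatal library, against 7.67% and 12% of all genes. Unc93b1, which carries endosomal Toll-like receptors to their compartment, was at 167, 222 and 198 CPM in the adult libraries, against 167, 685 and 572 CPM in the neonatal ones. Its log2 fold change was 1.69 ± 0.19 with an edgeR adjusted p of 0.0320, and over 19 fits the adjusted p ran from 1.16e-12 to 0.719. Mavs, the mitochondrial adaptor of RIG-I and MDA5, was at 5.03, 14.6 and 12.8 CPM in the adult libraries, against 22.7, 71.1 and 93.0 CPM in the neonatal ones. All 3 neonatal libraries were higher. Its log2 fold change was 2.93 ± 0.45 with an edgeR adjusted p of 0.0360, and 2.53 ± 0.62 with 0.169 on 6 libraries (4.51e-08 to 0.431 over 19 fits). Of 7 negative regulators 1 rose, Nlrx1, a mitochondrial protein that dampens MAVS signalling. It was at 44.3, 36.8 and 55.7 CPM in the adult libraries, against 3.59, 101 and 113 CPM in the neonatal ones, with a log2 fold change of 1.24 ± 0.22 and an edgeR adjusted p of 0.0408 (5.68e-05 to 0.996 over 19 fits).

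Of 59 other interferon-induced genes tested without neonatal replicate 4, edgeR called 5 higher and 1 lower. Other fits divided the list otherwise. DESeq2 called 3 higher and 7 lower on 6 libraries (5.72% of all genes), and 13 and 11 without replicate 4 (24%). Limma voom with quality weights called 7 and 7 (7.96%). On 6 libraries 7 of 56 were higher and 18 lower in every neonatal library, against 7.67% and 12% of all genes. The gene that edgeR called lower was Ube2l6, the conjugating enzyme that passes ISG15 to its targets. It was at 12.7, 14.1 and 7.78 CPM in the adult libraries, against 1.79, 0.977 and 0.726 CPM in the neonatal ones, and all neonatal values were lower. The fitted log2 fold change was -3.74 ± 0.52 with an edgeR adjusted p of 0.0360, and -3.43 ± 0.58 with 0.140 on 6 libraries (6.84e-13 to 0.389 over 19 fits). Pml, the organiser of PML nuclear bodies, was at 29.2, 54.0 and 38.1 CPM in the adult libraries, against 29.6, 139 and 145 CPM in the neonatal ones, with a log2 fold change of 1.82 ± 0.28 and an edgeR adjusted p of 0.0360 (3.83e-07 to 0.757). Shisa5, a membrane protein tied to p53-dependent cell death, had 1.28 ± 0.23 with 0.0408 (5.85e-05 to 0.895). Chosen after their values were seen, 3 guanylate-binding genes outside the 39 members are added: Gbp5, Gbp6 and Gbp9 were low in adult and near 0 in neonatal libraries. Gbp9 was at 2.88, 2.65 and 2.82 CPM in the adult libraries, against 0, 0.382 and 0.222 CPM in the neonatal ones. Gbp6 had 137 adult counts and 0 neonatal counts, at least 33.8-fold lower in neonatal LICs against 3 counts over the group. EdgeR's adjusted p values on 6 libraries were 0.140, 0.162 and 0.162 for Gbp5, Gbp6 and Gbp9, and 0.0634, 0.0558 and 0.0503 without replicate 4. Of 12 MHC class I processing genes 4 rose and 0 fell, with Tap2, Tapbp and Tap1 of smallest p.

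**Figure D5:**
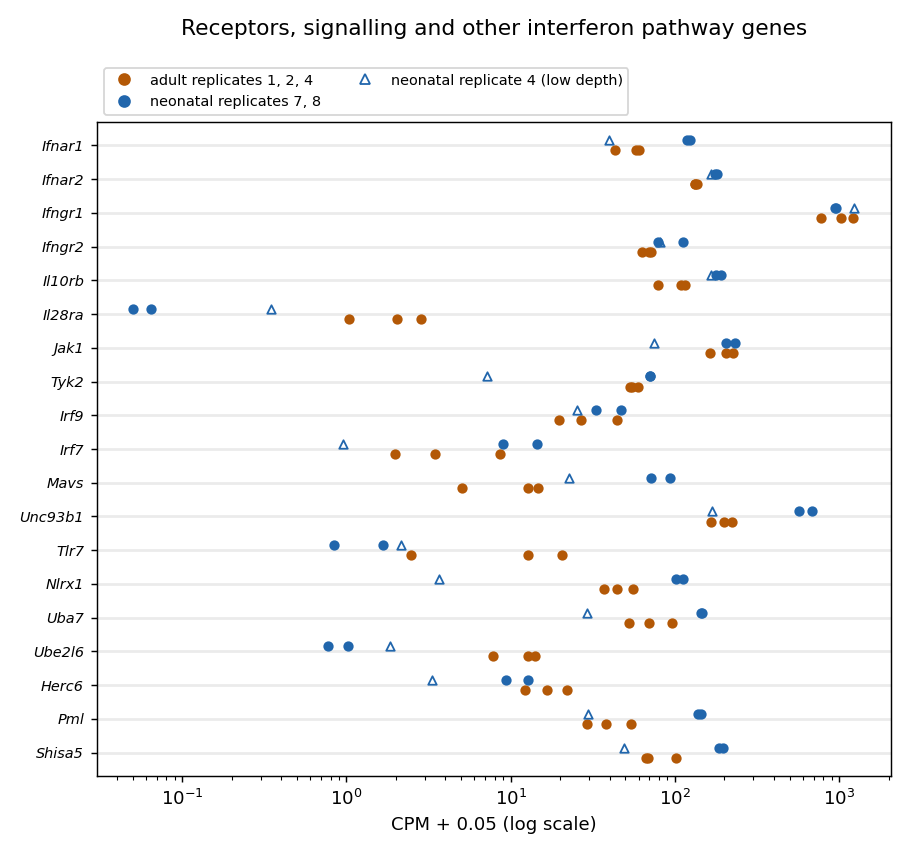
Level of selected interferon pathway genes outside the 39 members in each library, as CPM with 0.05 added on a log axis, with symbols as in the plot of members by library. Il28ra and Ube2l6 lie lower in all 3 neonatal libraries, and Mavs lies higher. Some of the genes shown were picked after their values were seen.

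Markers of other cells were read beside these values. The 11 stem and progenitor markers summed to between 1463 and 2160 CPM in the adult libraries and between 2057 and 4014 CPM in the neonatal ones. Kit, at 23.6 to 264 CPM, and Myb, at 683 to 1400 CPM, overlapped between the groups. Kit overlapped only through neonatal replicate 4, at 23.6 CPM from 79 counts. Without that library Kit was higher without overlap, with a log2 fold change of 1.75 and an edgeR adjusted p of 0.0361 (5.98% of all genes called). Slamf1 and Procr, markers of the most primitive stem cells, were at most 0.269 CPM. Cd34 and Flt3 were higher in every neonatal library. Flt3, a cytokine receptor of early progenitors, was at 6.59, 19.4 and 4.58 CPM in the adult libraries, against 256, 568 and 1231 CPM in the neonatal ones. Its log2 fold change was 6.07, with an edgeR adjusted p of 0.133 on 6 libraries and 0.0348 without neonatal replicate 4. Cd34 was at 8.16, 105 and 12.6 CPM in the adult libraries, against 396, 643 and 662 CPM in the neonatal ones. Gata2 had a log2 fold change of 4.88 with an edgeR adjusted p of 0.239. Its groups overlapped only through neonatal replicate 4, at 12.0 CPM, against 124 and 484 CPM in neonatal replicates 7 and 8. DESeq2 called Flt3 and Gata2, with adjusted p values of 7.8e-15 and 0.000893, against 5.72% of all genes called. It gave no p-value for Cd34. Other markers of the list went the other way: Myb, Ptprc and Hoxa9 had log2 fold changes of -0.51, -0.53 and -0.63, and their groups overlapped. Of 9 markers tested 6 were positive and 3 negative, and 2 were higher in every neonatal library, against 7.67% of all genes. Without neonatal replicate 4, 4 of 9 were higher without overlap, against 25% of all genes. The part of these marker differences in the members' values was not tested. In bulk RNA, fewer cells of a type and less RNA per cell cannot be told apart. Mature neutrophil markers summed to between 1846 and 14887 CPM in the adult libraries and between 79.6 and 292 CPM in the neonatal ones. Their log2 fold changes were negative for 10 of 10, against 46.5% of all genes, and for 9 of 10 without neonatal replicate 4, against 52%. Lower in every neonatal library were 5 of 10, against 12% of all genes, and 0 of 10 were at 0 in every library. Without neonatal replicate 4, 8 of 10 were lower without overlap, against 25.6% of all genes. Ngp, Camp, S100a8 and S100a9 made up most of each adult sum. Cxcr2, Mmp8 and Mmp9 overlapped between the groups, with log2 fold changes of -0.09, -0.31 and -0.38. Without neonatal replicate 4, Cxcr2 and Mmp8 were lower without overlap, with log2 fold changes of -1.08 and -1.11, while Mmp9 still overlapped, at 0.16. The 7 members without overlap that were lower were picked for low values in all 3 neonatal libraries, so sharing that pattern with neutrophil markers carries no information. The part of neutrophil RNA in their values was not tested. Among the adult libraries, the neutrophil sum was highest in replicate 2 (14887 CPM). There Ifit2, Oas2, Gbp7 and Eif2ak2 had their lowest adult values, Isg20 its highest, and Ifitm3 and Dtx3l their middle ones. A relation over these 3 adult libraries was not tested. Monocyte and macrophage markers summed to between 1588 and 2543 CPM in the adult libraries, against 4324, 1430 and 1529 CPM in the neonatal ones. Ly6c2 made up most of each sum, with 1297, 1255 and 2353 CPM in the adult libraries and 3992, 915 and 1203 CPM in the neonatal ones. Other markers of that list went both ways: Cd68 was higher in every neonatal library (log2 fold change 1.56), while C1qa, C1qb and Fcgr1, which had 0 neonatal counts, were lower in every one. Plasmacytoid dendritic cell markers, which include Bst2, summed to between 48.7 and 97.5 CPM in the adult libraries and between 148 and 566 CPM in the neonatal ones. Of those 8 markers Cd209d was at 0 throughout and Siglech, the defining one, at most 0.0893 CPM, while Tcf4 made up most of the neonatal sum. The B-cell markers Ms4a1 and Pax5 and the T-cell markers Cd3e, Cd3g and Cd4 had 0 counts in every library. Cd79b, of the B-cell list, was at 68.5, 60.4 and 28.3 CPM in the adult libraries, against 146, 90.3 and 70.7 CPM in the neonatal ones, all higher. The T and NK markers summed to between 46.0 and 113 CPM in the adult libraries, against 272, 37.1 and 55.2 CPM in the neonatal ones, most of it Nkg7.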

How the data were processed

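RNA from sorted LICs was read single-end at 75 bases after polyA selection, per the labels' protocols. The deposited file held unnormalised read counts, which the authors made with featureCounts v1.5.1 on primary alignments to a UCSC gene annotation of mouse mm10 with no strand option, per the file headers. Trimmomatic, Bowtie, TopHat and DESeq2 are named in the submitters' processing notes without versions. Coordinates are the file's lowest start and highest end of a gene.

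Counts were fitted with edgeR 4.0.16 in R 4.3.3: filterByExpr with a minimum count of 10, TMM scaling, a robust quasi-likelihood fit and Benjamini-Hochberg adjustment over the 13272 genes kept. The SE is the absolute log2 fold change divided by the square root of F, an approximation. CPM used TMM-scaled library sizes of 3345570 in neonatal replicate 4 and 59674688 to 70595329 in the others. Group values are means with SD over 3 libraries. Only the edgeR fit was run on simulated counts with known changes, with and without neonatal replicate 4. How many of those changes it recovered is not reported here. No promoter entry was looked for beyond RefSeq's table.

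The members and lists were chosen with earlier results of these data known. The rule named all 39 members. It gave library values for called members, members without overlap between groups, and the 3 highest and 3 lowest by RPKM, and for each pathway list up to 3 genes, those called or else those of smallest p. Library values of members outside the rule (Ddx58, Stat2, Isg15, Usp18, Adar, Xaf1 and Rtp4), and Gbp5, Gbp6 and Gbp9 and other genes of the pathway plot, were added after values were seen. Of 68 other interferon-induced genes listed, 66 were in the file.

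Beside the fit described, 15 other fits were set with the design: DESeq2 1.42.0, limma 3.58.1 voom with and without quality weights, 3 scalings, 2 filters, a fit without the sex chromosomes, and each of 6 libraries left out. Added after seeing the data were DESeq2 and voom without neonatal replicate 4, and edgeR offsets for length and GC trends of the libraries, which made 19 fits in all. GC content came from GENCODE transcripts and matched 89.9% of the genes kept.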

Additional observations from a re-analysis of the deposited data

How the results depend on the processing

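Over all genes edgeR called 7 (0.0527%), and 1 to 828 (0.00733% to 5.98%) when 1 library was left out, the highest without neonatal replicate 4. DESeq2 called 759 (5.72%), voom with quality weights 1056 (7.96%), edgeR without chromosomes X and Y 0 (the cause was not tested), and edgeR with length and GC trends removed 13 (0.098%). Without neonatal replicate 4, DESeq2 called 3320 (24%) and voom 928 (6.7%). Among the 38 members, 0 were called by edgeR with any single library left out, 1 (2.63%) by DESeq2 and 2 (5.26%) by voom with quality weights. Without neonatal replicate 4, 5 (13.2%) were called by DESeq2 and 1 (2.63%) by voom. In all, 9 of 678 pairs of member and alternative passed the threshold (1.33%), from 5 members, against 2.85% of such pairs over all genes. The median log2 fold change of the members was 0.00 and lay between -0.25 and 0.0623 with 1 library left out in edgeR. On 6 libraries it was -0.26 with quality weights, 0.02 with DESeq2 and -0.16 with voom. Without neonatal replicate 4 it was -0.25 with DESeq2 and -0.30 with voom. Members without overlap between groups, 2 higher and 7 lower, were 2 to 7 higher and 7 to 11 lower with 1 library left out, with the upper ends without neonatal replicate 4. Over all genes these shares ran from 9.89% to 25% higher and from 14.6% to 25.6% lower, with the same library at the upper ends. The causes of these moves were not tested. No paired analysis was possible because the groups share only 1 replicate number (4). Depth limits neonatal replicate 4 most, where a count of 0 allows up to 0.897 CPM.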
